A study of Caenorhabditis elegans with 2 samples.

Results

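The histone genes of Caenorhabditis elegans were taken as the protein-coding genes whose symbol starts with his- in the Ensembl annotation of the genome build WBcel235, which is ce11 under another name. There were 72 of them among 19973 nuclear protein-coding genes. Sites of SPR-1 on chromatin had been mapped by ChIP-seq, the sequencing of DNA fragments that come down with a protein, in whole hermaphrodite worms at the L4 stage. The worms were synchronised as L1 larvae starved after bleaching and grown for 50 hours from then. The strain OP521 carried unc-119(tm4063) III and the transgene wgIs521, from which SPR-1 is made with a GFP-FLAG tag at its C terminus, and the sonicated chromatin was pulled down through the GFP. The samples formed 1 group of 2 biological replicates, each with its own biosample, and held no untagged or mutant worms. Binding by SPR-1 and other sources of recovered DNA cannot be told apart here, and bound is used below only for what was called.

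Histones are the proteins around which nuclear DNA is wrapped. H2A, H2B, H3 and H4 form the core particle, and H1 binds the DNA that links particles. Core histone genes are transcribed in large amounts when DNA is replicated, and in C. elegans they lie in clusters in which an H2A gene and an H2B gene, or an H3 gene and an H4 gene, usually start back to back. H3.3 is a variant of H3 that is deposited outside replication. SPR-1 is the worm CoREST protein, which partners SPR-5, the worm form of the LSD1 demethylase of histone H3.

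A candidate is a line of the authors' pooled list of regions and background, made from both replicates together, and a gene had a candidate when the summit of such a line lay within 1000 bp of its annotated start. A gene was called bound when that summit was in the authors' thresholded list. The signal of a region is the authors' own value, on a scale that no label or header states, and serves here only for ranks and descriptions inside each list. The pooled list held 30000 lines with a median signal of 27.4, replicate 1 had 26070 candidates and replicate 2 had 21966. The lowest thresholded signal was 79.7. Read depth is unknown.

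Ensembl gives only 50 different symbols to the 72 genes, because 14 symbols are each used for several near-identical copies. The genes are named here by their RefSeq symbols, which matched all 72 through the WormBase gene identifier. For 64 of them the annotated gene is a single coding exon, so the annotated start is the first base of the coding sequence and not the start of transcription. By the product names of RefSeq there were 17 genes for H2A, 16 for H2B, 15 for H3, 16 for H4, 5 for H3.3 or H3.3-like proteins, and 2 others, his-39 and his-73, whose product is named only as a histone-domain protein. The product of the H1 gene his-24 is named only Histone 24, and it was put in a class of its own by its symbol. Starts within 5 kb of each other were chained into clusters. This gave 15 clusters of 2 to 13 genes, with 67 genes in all, and 5 single genes (his-24, his-71, his-72, his-73 and his-74).

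The following sequences come from promoters of the family with and without a thresholded summit. The first 3 are the whole stretches between the starts of divergent gene pairs. That of his-4 and his-3 (chrV:16040516-16040807, plus strand) held a thresholded summit, and that of the neighbouring pair his-2 and his-1 (chrV:16042284-16042519, plus strand) held none. That of his-51 and his-52 (chrV:8850172-8850463, plus strand) also held none, but it is present in 4 identical copies among the divergent pairs. Each 50-base word within 1000 bp of the his-51 and his-52 starts occurs elsewhere in the genome too. The other sequences are the 151 bases around the summits of his-37 (chrV:9546954-9547104, plus strand) and of the his-61 and his-62 pair (chrIV:7486333-7486483, minus strand), and the 150 bases before the start of his-24 (chrX:14489944-14490093, plus strand). Capitals mark matches, on either strand, of the 4 of 5 searched words that occur in them. These are TATAAA, the short word CCAAT, and 2 longer words that are spelled out further on. All are read from the RefSeq copy of WBcel235.
his-4/his-3: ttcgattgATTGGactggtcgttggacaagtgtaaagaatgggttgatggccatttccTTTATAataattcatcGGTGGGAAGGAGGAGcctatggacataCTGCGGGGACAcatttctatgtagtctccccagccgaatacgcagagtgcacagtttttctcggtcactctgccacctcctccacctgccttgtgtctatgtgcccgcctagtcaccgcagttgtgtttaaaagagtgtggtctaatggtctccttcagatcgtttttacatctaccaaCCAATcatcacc
his-2/his-1: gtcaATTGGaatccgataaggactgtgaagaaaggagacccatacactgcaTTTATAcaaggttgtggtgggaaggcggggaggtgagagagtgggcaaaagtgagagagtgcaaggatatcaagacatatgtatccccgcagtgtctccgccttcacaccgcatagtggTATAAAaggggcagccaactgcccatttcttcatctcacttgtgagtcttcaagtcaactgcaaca
his-51/his-52: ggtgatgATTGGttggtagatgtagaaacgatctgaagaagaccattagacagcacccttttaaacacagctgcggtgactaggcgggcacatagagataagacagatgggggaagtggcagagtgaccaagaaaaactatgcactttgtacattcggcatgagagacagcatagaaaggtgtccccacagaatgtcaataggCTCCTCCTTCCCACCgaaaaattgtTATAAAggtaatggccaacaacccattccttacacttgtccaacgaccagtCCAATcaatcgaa
his-37: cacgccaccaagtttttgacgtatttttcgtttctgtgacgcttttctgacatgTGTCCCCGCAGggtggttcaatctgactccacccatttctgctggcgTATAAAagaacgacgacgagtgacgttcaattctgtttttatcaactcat
his-61: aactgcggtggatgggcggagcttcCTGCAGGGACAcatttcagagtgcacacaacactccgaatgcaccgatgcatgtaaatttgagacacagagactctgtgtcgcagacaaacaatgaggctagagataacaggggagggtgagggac
his-24 upstream: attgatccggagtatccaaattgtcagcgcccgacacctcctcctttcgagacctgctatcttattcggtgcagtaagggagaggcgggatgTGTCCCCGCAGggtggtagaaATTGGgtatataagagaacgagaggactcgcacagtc

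In all, 9 of the 72 histone genes were bound (12.5%), where 5.83% of all protein-coding genes were. The bound genes were his-37, his-67, his-68, his-42, his-35, his-3, his-4, his-24 and his-72. Another 25 had a candidate below the threshold, and 38 had none, so that 34 (47.2%) had a candidate, where 45.8% of all protein-coding genes did. Among genes with a candidate, 26.5% of the histone genes were bound, beside 12.7% of all such genes. Neighbouring histone genes share summits. The 9 bound genes rested on 8 distinct thresholded summits in 6 loci, so the counts of genes are not counts of independent events.

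Taken by the strongest lines of each replicate, as many as the thresholded list holds, replicate 1 gave 10 histone genes and replicate 2 gave 8. The share over all protein-coding genes was 5.65% in replicate 1 and 5.96% in replicate 2. Of the 9 bound genes, 6 were among the strongest lines in both replicates: his-37, his-67, his-68, his-42, his-35 and his-24. The other bound genes were reached in 1 replicate each, his-3 and his-4 in replicate 1 and his-72 in replicate 2. Besides these, his-61 and his-62 were reached in replicate 1 and his-41 in replicate 2, which makes 12 genes in either.

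**Figure D1:**
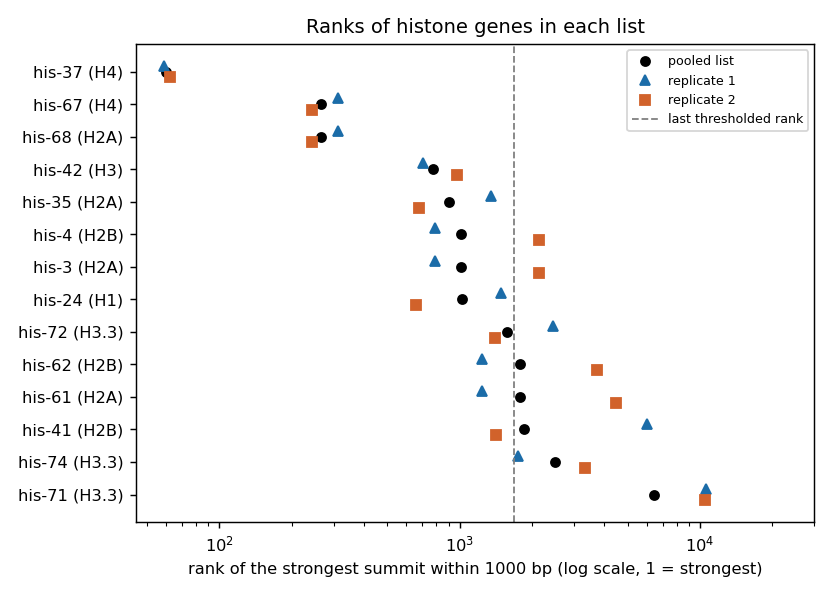
Rank of the strongest summit within 1000 bp (log axis, 1 = strongest) for the bound histone genes, those among the strongest lines of either replicate and the single genes with a candidate; circles are the pooled list, triangles replicate 1 and squares replicate 2, and the dashed line is the last thresholded rank. his-37 sits at ranks 60, 59 and 62 in the pooled list, replicate 1 and replicate 2, while his-3, his-4, his-72, his-61, his-62 and his-41 lie on different sides of the line in the 2 replicates. H3.3 on the axis stands for H3.3 and H3.3-like.

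The strongest histone region was at his-37, which encodes H4. Its summit lay 76 bp upstream of the start in a region at V 9546851 to 9547174 with a pooled signal of 457 (rank 60). Replicate 1 gave a signal of 245 (rank 59) with a summit 2 bp away, and replicate 2 gave 211 (rank 62) at the same base. The rank was thus nearly the same in both replicates. No other histone gene starts within 1000 bp of that summit, but the start of C50F4.6 lies 937 bp from it.

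The 2 neighbours of his-37 are the H2A gene his-35 and the H2B gene his-41, which start in opposite directions with 247 bp between them. The thresholded region counted for his-35 lay 894 bp downstream of its start, at V 9544164 to 9544623, with a pooled signal of 111 (rank 901), 51.8 in replicate 1 (rank 1347) and 59.5 in replicate 2 (rank 679). Its summit was only 168 bp upstream of mdf-1, a spindle checkpoint gene, so it is nearer to that gene than to his-35. The strongest candidate of his-41 was below the threshold at a pooled signal of 76.1 (rank 1849), with 26.2 in replicate 1 (rank 6011) and 41.2 in replicate 2 (rank 1419). These are 3 different places: the pooled summit lay 937 bp upstream of his-41, past the far end of his-35, that of replicate 1 747 bp downstream and that of replicate 2 12 bp upstream. The pooled summit, at V 9544599, fell inside the thresholded region just described, whose own summit is nearer to mdf-1. Between the starts of his-35 and his-41 the strongest summit had a signal of only 49.9 (rank 4196). This cluster held 8 candidate summits in 3.82 kb.

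The second strongest region lay between his-67, an H4 gene, and his-68, an H2A gene, on chromosome I. It is the only divergent pair of the 31 in the family that joins H4 with H2A. The summit at I 9988993, in a region from 9988926 to 9989082, was 230 bp upstream of his-67 and 139 bp upstream of his-68. Its pooled signal was 203 (rank 265), with 105 in replicate 1 (rank 313) and 97.8 in replicate 2 (rank 243). Both replicates placed it well inside the strongest lines. The Argonaute gene alg-5 starts 809 bp from the same summit.

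Of the H2A and H2B pairs, his-3 and his-4 shared a thresholded summit at the centre of their common promoter, whose sequence is printed above. The summit at V 16040662, in a region from 16040432 to 16040891, lay 146 bp upstream of his-3 and 147 bp upstream of his-4. The pooled signal was 104 (rank 1017), and the replicates gave 67.5 (rank 790) and 34.2 (rank 2148). Replicate 2 alone would not have placed it among the strongest lines. A noncoding RNA gene, T10C6.19, lies within 200 bp of the summit. The H3 gene his-2 and the H4 gene his-1 start in the same cluster, and neither had a candidate in the pooled list or in replicate 2. Replicate 1 had a weak one for both, at a signal of 14.9 (rank 20452).

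A cluster on IV just missed the threshold. The H2A gene his-61 and the H2B gene his-62 shared a summit with a pooled signal of 77.2 (rank 1787), 191 bp upstream of his-61 and 137 bp upstream of his-62, and these are the members just outside the threshold. In replicate 1 it had a signal of 54.0 (rank 1242), and in replicate 2 the nearest summit, 92 bp away, had 24.7 (rank 4474). Between the starts of his-60 (H4) and his-59 (H3) in the same cluster the strongest summit had a signal of 23.2 (rank 20070), and their strongest candidate was at 55.4 (rank 3360), 926 bp upstream of his-60. In the cluster of his-5 to his-8 on V it was the H4 gene his-5 and the H3 gene his-6 that had a candidate, at 28.0 (rank 14364), 210 bp downstream of the his-5 start. Replicate 1 had a stronger rank there (signal 37.7, rank 2583), but 329 bp from the pooled summit, and replicate 2 had 14.8 (rank 14063), 230 bp from it. Both replicate summits lay between the starts of his-6 and his-5, 119 bp upstream of his-5 in replicate 1 and 20 bp upstream in replicate 2. The H2A gene his-7 and the H2B gene his-8 had no candidate in any of the lists.

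Over the 31 divergent pairs, the starts were 227 to 368 bp apart, with a median of 258 bp between them. A pooled summit lay between the starts in 6 pairs and a thresholded one in 2, those of his-67 and his-68 and of his-4 and his-3. By composition the 6 pairs were 3 of 16 pairs of H2A with H2B, 2 of 14 pairs of H3 with H4, and the pair of H4 with H2A. The pair of his-6 and his-5 is not among the 6, although its strongest summit lay between the starts in each replicate. No share over all divergent pairs of the genome is given here. Around the starts of the 6 pairs, at least 81.9% to 99.9% of 50-base words occur once in the genome, a measure described further on. For the 25 pairs without a pooled summit between the starts that share ran from 0% to 90.5%. The part of this in the counts was not tested. In the 6 pairs the summit was 0.500 to 69.0 bp from the midpoint of the starts.

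**Figure D2:**
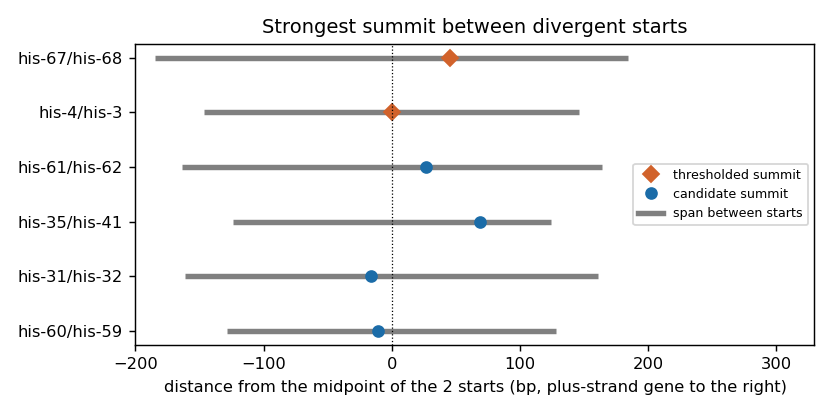
Distance in bp of the strongest pooled summit from the midpoint of the starts for the 6 divergent histone pairs with a summit between them, with the plus-strand gene to the right; grey bars span the starts, diamonds are thresholded and circles are not. The summit of his-4 and his-3 lies 0.500 bp from the midpoint and that of his-35 and his-41 lies 69.0 bp from it.

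The H1 gene his-24, on X, had a thresholded summit 116 bp downstream of its start, inside the gene, at X 14489980 to 14490439. Its pooled signal was 104 (rank 1024), with 49.4 in replicate 1 (rank 1487) and 60.6 in replicate 2 (rank 661). The summits of the replicates were 161 bp and 55 bp from the pooled one, so the position is less exact than at his-37. The noncoding RNA genes M163.16 and M163.19 lie within 200 bp of that summit.

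Of the 5 genes for H3.3 and H3.3-like proteins, all had a candidate and only his-72 was bound, where 45.8% and 5.83% of all protein-coding genes were. A candidate at each gene is not particular to this class, as all 13 histone genes with the most unique sequence, described below, had one. Those 13 include his-69, his-71, his-72 and his-74 of this class, and the rest are genes for H1, H2A, H2B, H3 and H4. his-72, one of the genes for H3.3 itself, is the member just inside the threshold. Its pooled signal was 82.5 (rank 1575), with 38.7 in replicate 1 (rank 2439) and 41.5 in replicate 2 (rank 1406), and the summit lay 705 bp upstream of his-72 and 701 bp upstream of rpt-6, a proteasome ATPase gene. The other H3.3 gene, his-71, had a pooled signal of 40.8 (rank 6456), with 20.5 (rank 10605) and 17.1 (rank 10498) in the replicates. Of the H3.3-like genes, his-74 had 64.4 (rank 2497) at a summit inside ccch-3 and only 118 bp from the start of that gene, with 45.7 in replicate 1 (rank 1746) and 28.2 in replicate 2 (rank 3329). The remaining H3.3-like genes were weaker, his-70 at 44.1 (rank 5418) and his-69 at 18.1 (rank 28822), the weakest candidate of any histone gene. The lowest signal in the pooled list was 17.6, and neither replicate had a candidate for his-69. The summit of his-70 lay 983 bp upstream of its start, inside the pseudogene E03A3.5.

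Replication-linked H3 had 1 bound gene of 15, his-42, at the end of the cluster of 13 genes on II. It had 2 overlapping thresholded regions. The stronger, at II 13829278 to 13829737, had its summit 811 bp upstream of his-42, with a pooled signal of 120 (rank 774), 70.9 in replicate 1 (rank 701) and 49.9 in replicate 2 (rank 973). The weaker summit was 562 bp upstream, at a signal of 112 (rank 879). Both lay within 200 bp of the snRNA gene C47F8.9 and the noncoding RNA gene R05D7.8. None of the other genes of that cluster was bound, and of them only his-9 and his-25 had a pooled candidate, at 27.3 (rank 15074), 826 bp and 785 bp from their starts.

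By class, then, 3 of 17 H2A genes were bound (his-3, his-35, his-68), 1 of 16 H2B genes (his-4), 1 of 15 H3 genes (his-42), 2 of 16 H4 genes (his-37, his-67), 1 of 5 H3.3 and H3.3-like genes (his-72) and the H1 gene. Over all protein-coding genes 5.83% were bound, and the counts for H2B and H3 are near that share. Of the 25 candidates below the threshold, the pooled signal ran from 18.1 to 77.2 with a median of 33.8. The weakest after his-69 were his-38 and his-40, which share a candidate of 18.2 (rank 28688), and his-55 and his-56, which share one of 20.8 (rank 23857). Replicate 1 had candidates for 29 histone genes (43.5% over all protein-coding genes) and replicate 2 for 34 (38.8% over all).

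Clustered genes were bound in 7 of 67 cases (10.4%) and single genes in 2 of 5 (40.0%, his-24 and his-72), where 5.83% of all protein-coding genes were. A candidate was present for 30 of 67 clustered genes (44.8%) and for 4 of 5 single genes, the exception being his-73, which had only a replicate 1 candidate of 13.8 (rank 23311). The clustered share is near the 45.8% of all protein-coding genes with a candidate. Counted by locus, a bound gene was present in 4 of 15 clusters and in 2 of 5 single loci. With 5 single genes, each of them moves the share by a large step, and neither group is a set of replicates.

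The clusters differ from the single genes in how unique their sequence is. For each gene, the share of 50-base words within 1000 bp of the start that occur once in the genome was counted. Its median was 28.8% for clustered genes, 100% for single genes and 100% for all protein-coding genes. For 41 of the 72 histone genes the share was below 50%, and for 16 it was 0, which means that each 50-base word around those starts occurs elsewhere too. None of those 16 had a candidate. No label or header states how reads that match several places were treated, and the part of this in the results was not tested.

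**Figure D3:**
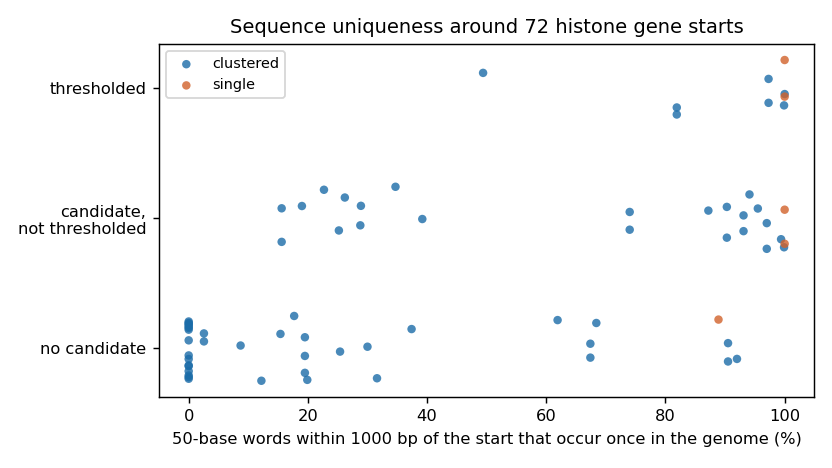
Share of 50-base words within 1000 bp of each histone gene start that occur once in the genome (x axis, percent), for genes with no candidate, with a candidate below the threshold and with a thresholded summit; points are genes, spread vertically so that they can be seen, in blue for clustered and orange for single genes. Genes with no candidate reach down to 0, while bound genes lie between 49.4 and 100.

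Bound histone genes had unique shares of 49.4% to 100%, with a median of 97.3%, and his-42 was the lowest. Those with a candidate below the threshold ran from 15.6% to 100%, with a median of 87.2%, and those with none from 0% to 92.0%, with a median of 10.5%. The ranges overlap. With words of 36 bases the medians were 94.8%, 81.1% and 10.4%.

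Read against all genes with a like share of unique words, histone genes had a candidate in 13 of 13 cases at a share of at least 95%, where 48.3% of all protein-coding genes in that range had one. They were bound in 6 of those 13 cases (46.2%), where 6.25% of all such genes were. The 13 genes come from 9 loci, of which 4 had a bound gene among them. They include his-69, whose weak pooled candidate was in neither replicate. At a share of 50% to 95% the histone genes had a candidate in 10 of 18 cases and were bound in 2, his-3 and his-4, where 36.6% and 4.00% of all such genes were. Below 50%, 11 of 41 had a candidate and 1, his-42, was bound, where 8.15% and 1.20% of all such genes were. The shares over all genes include the histone genes, which are 41 of the 417 genes in the lowest range. These are counts over genes that share summits, and no test was made.

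**Figure D4:**
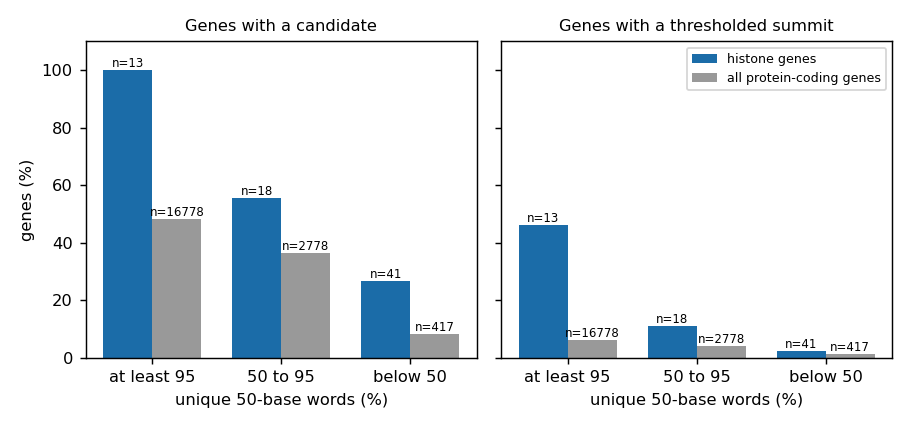
Share of genes (percent) with a candidate (left) and with a thresholded summit (right) within 1000 bp of the start, in 3 ranges of the share of unique 50-base words; blue bars are histone genes, grey bars are all protein-coding genes, and n is the number of genes. Bars fall from left to right in both panels for both sets, and 13 of 13 histone genes in the highest range had a candidate.

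Among the 31 histone genes with at least 50% of words unique, a split chosen after seeing the data, 6 of 26 clustered genes (23.1%) and 2 of 5 single genes (40.0%) were bound. Of all protein-coding genes, 6.25% were bound at a share of at least 95% and 4.00% at 50% to 95%. The bound gene his-42, at 49.4%, falls just below the cut. The 2 shares lie closer together than over all members, but with 5 single genes nothing is concluded from that.

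The least unique clusters lie in a stretch of V with hardly any candidates at all. Between neighbouring pooled summits at V 8791313 and 8921151 there were 130 kb with none, where the median gap between nuclear summits is 1461 bp and only 3 of 29971 gaps were longer. This stretch holds 14 histone genes, in the clusters of his-49 to his-54 and of his-17 to his-22, his-27 and his-28, and 18 other protein-coding genes. Of those others, 13 had a unique share below 50% and 4 had one of at least 95%. Each replicate had 4 candidates in the stretch. Those near histone genes were weak ones of replicate 2 at his-17 (signal 12.6, rank 19207) and his-18 (signal 13.0, rank 18210). On IV, his-63 and his-64 also lay in a gap, of 32.0 kb, with unique shares of 68.4% and 61.9%, and only his-63 had a candidate in a replicate, of 12.6 in replicate 2 (rank 19075).

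Short words were searched on both strands in the 250 bases before and 50 after each start, and no matches of different words overlapped in the histone promoters. A word that reads CTCCTCCTTCCCACC, with any base allowed at the fifth and the ninth position, was in 28 of 72 histone promoters (38.9%) and in 29 of all 19973 (0.145%), the remaining one being that of cpg-7. It was on a list of words written for histone promoters, so these counts describe where it is and support nothing. Of the 28, 24 belonged to genes with no candidate, 2 to bound genes (his-3 and his-4, which share the match) and 2 to genes with a candidate below the threshold. Over the whole family 38 of 72 genes had no candidate. Of the 24, all but his-63 and his-64 (68.4% and 61.9%) had a share of unique 50-base words of 31.6% or less. The part of this in the counts was not tested. It lay in 10 of 16 stretches between H2A and H2B starts and in 4 of 14 between H3 and H4 starts. In the his-4 and his-3 promoter it has exactly these letters, as it does between his-51 and his-52. No summit was called there, and the unique share of both genes is 0%.

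A word that reads TGTCCCCGCAG, with any base allowed at the seventh position, was added after the sequences above had been seen, so its counts describe where it is and support nothing. It was in 30 of 72 histone promoters (41.7%) and in 35 of all promoters (0.175%). It was present at 6 of the 9 bound genes (his-37, his-67, his-68, his-3, his-4 and his-24), at 8 with a candidate below the threshold and at 16 with none. Between divergent starts it was found in 5 of the 6 pairs with a pooled summit there and in 9 of the 25 pairs without. Outside the family it was rare even at summits: of the 1655 nuclear thresholded summits that are not at histone genes, 2 had a match inside the 75 bp on either side (0.121%). Of the 28314 nuclear candidate summits below the threshold, histone genes included, 6 had one (0.0212%). With so few matches no difference is read from these shares.

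The remaining words are described in the same way. TATAAA was in 47 histone promoters (65.3%, against 37.9% of all) and CCAAT in 39 (54.2%, against 45.5%). TATAAA was present at 6 of the 9 bound genes and CCAAT at 7. TTTCGCGC was in 0 of 72, where 1.14% of all promoters held it. The stretches between the 31 pairs held 21 different sequences, and 16 pairs had a sequence that another pair shares exactly, so matches in copies are not independent.

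Histone genes outside the his- family, and genes that act on histones, were described from lists written for this purpose. Of 11 variant and linker histone genes (htz-1, hcp-3, cpar-1 and hil-1 to hil-8), 8 had a candidate and 1 was bound, where 45.8% and 5.83% of all protein-coding genes were, and the 1 bound gene is near that background. It was htz-1, which encodes H2A.Z, with a pooled signal of 177 (rank 348), 87.9 in replicate 1 (rank 454) and 93.7 in replicate 2 (rank 265), 291 bp upstream of its start. wapl-1, a cohesin release factor gene, also starts within 1000 bp of that summit. The strongest unbound gene was hil-4, an H1 gene, at 37.8 (rank 7576), 985 bp downstream of its start. pgl-3 also starts within 1000 bp of that summit. The strongest hil-4 summits of the replicates lay elsewhere, 73 bp (rank 14172) and 267 bp (rank 10972) downstream of the start. The centromeric H3 gene hcp-3 had 27.9 (rank 14456).

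Of 15 genes listed for histone messenger processing, chaperones and assembly, 14 were matched by name in the annotation, and of these 12 had a candidate and 2 were bound, beside the same 45.8% and 5.83% of all protein-coding genes. With so few genes no difference from that background is read from these counts. lin-53, whose protein is the worm RbAp46 and RbAp48 counterpart, had a pooled signal of 355 (rank 77), 179 in replicate 1 (rank 88) and 167 in replicate 2 (rank 84), at a summit near which nra-2 starts too. unc-85, an Asf1 histone chaperone gene, had 145 (rank 522), with 86.8 (rank 473) and 64.0 (rank 582) in the replicates. The strongest unbound gene was ssl-1 at 56.9 (rank 3180). cdl-1, which encodes the stem-loop binding protein that histone messenger RNAs need, had 50.5 (rank 4075), with 24.1 (rank 7319) and 30.6 (rank 2762) in the replicates.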

How the data were processed

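ChIP-seq regions of GFP-tagged SPR-1 came from 2 biological replicates of 1 group. Per the deposited text listings, the ce11 lists were made with 1 control alignment, and an irreproducible discovery rate analysis turned candidate lists into the thresholded one. No header or label used here names the aligner, peak caller or threshold. The authors' signal value per region, never negative and of unstated scale, was used for ranks. The deposited −log10 q values were not used, as most thresholded regions share the highest one. The ce10 lists were not used here.

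Regions were read as 1-based intervals, and gene starts came from Ensembl release 115 and RefSeq names from its WBcel235 annotation. The strongest summit within 1000 bp was assigned to each of 19973 nuclear protein-coding genes. The assignment was tested on simulated data. Words of 36 and 50 bases were counted over both strands of the whole genome. Python 3.11.15, pandas 2.3.3 and numpy 2.4.6 were used. No test was made, since there is 1 group and the members share summits. The members, lists and comparisons were chosen with earlier results of these data known. Genes were named where bound, among the strongest lines of either replicate, single, just inside or outside the threshold, or the strongest and weakest below it, and in each list the bound and the strongest unbound gene. Others, among them his-1, his-2, his-5 to his-9, his-25, hcp-3 and cdl-1, were named after their values were seen. The unique share, the word TGTCCCCGCAG and the cut on unique share were added after seeing the data. Alternatives changed the window, threshold, overlap (at least 1 bp), replicate, assignment, cluster distance and member set.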

Additional observations from a re-analysis of the deposited data

How the results depend on the processing

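The number of bound histone genes, 9, was 4 with a shorter list of the strongest lines, 15 with a longer one and 5 when a summit counted only for its nearest gene start. For other lists, windows and assignments no share over all protein-coding genes is given, and it would move with the setting too. These counts are therefore not set against a background. Distinct bound regions, 8, were 4 within 500 bp, 3 with the shorter list and 13 with the longer. Genes with a candidate, 34, fell to 20 within 500 bp and 22 with the nearest start only. Clustered genes bound, 10.4%, were 16.4% within 2000 bp, 5.97% with the shorter list and with the nearest start only, 17.9% with the longer list, and 23.1% among members with at least 50% unique words, the last chosen after seeing the data. Single genes bound, 40.0%, were 20.0% within 500 bp and with the nearest start only, 0% with the shorter list and 60.0% with the longer. Without replicate 1 or without replicate 2, bound genes were 8 to 10, distinct regions 8 in each, genes with a candidate 29 to 34, clustered genes 8.96% to 13.4% and single genes 20.0% to 40.0%: without replicate 2 his-72 was lost, without replicate 1 his-3 and his-4. Within 500 bp the summits of his-42 (562 bp or more), his-35 (894 bp) and his-72 (705 bp) were too far from the start. With the nearest start only, his-67, his-4, his-35 and his-72 were lost because another start was nearer to the summit. The cause of the shifts between replicates was not tested. Chaining clusters within 2 kb or 10 kb left 67 clustered and 5 single genes. No paired analysis was possible because there is 1 group. Read depth is unknown, so precision could not be given.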

Other observations

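spt-16, a subunit gene of the FACT histone chaperone, had no pooled candidate within 1000 bp of its start, although replicate 1 had one with a signal of 40.1 (rank 2262) and replicate 2 one with 26.4 (rank 3822). The word that reads CTCCTCCTTCCCACC, with the same 2 free positions, occurred 29 times in the genome, 17 of them within 1000 bp of a histone gene start and 12 further away. The thresholded summits of his-72 and his-35 had the start of another protein-coding gene nearer to them, rpt-6 at 701 bp and mdf-1 at 168 bp.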
